A study of Mus musculus with 6 samples.

Results

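The 10 genes described here, Aif1, Ptprc, Cd52, Cd53, Coro1a, Lcp1, Vav1, Inpp5d, Was and Arhgdib, are expressed across many kinds of white blood cell and encode surface, actin and signaling proteins of these cells. They were taken by gene symbol, with no threshold on a measured value but with earlier results of these data known, and all 10 had a row among the 23420 genes of the count table. Retinal mRNA of mice was sequenced in 6 libraries, 2 in each of 3 groups, to compare light-damaged retinas with and without the tetracycline antibiotic minocycline. Control retinas came from mice given neither light nor drug. The light group was exposed for 1 h and studied after 4 days. The light with minocycline group had the same exposure and daily intraperitoneal minocycline at 45 mg/kg. Per the sample labels the mice were of strain CD1, the light was 10000 lux and minocycline ran for 4 days, whereas the study's methods describe albino BALB/cJ mice of both sexes, a brighter light and a longer course with extra early doses. No genetic change is named for any group. The study calls the replicates biological. Neither source says how many animals entered a library or what vehicle the RNA-seq light group received, so the p-values below measure the spread between libraries, which may in part be technical.

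Leukocytes move, swallow debris and signal through a dense actin cortex. CD45, the phosphatase encoded by Ptprc, sets the activity of Src-family kinases at the membrane. Signals from there reach small GTPases such as RAC through exchange factors such as Vav1, and the GTPases drive actin assembly through WASP, the product of Was. In the healthy retina the cells that carry these proteins are chiefly microglia, the resident macrophages of the neural tissue, and IBA1, the product of Aif1, is the protein most often stained to show them. After injury to photoreceptors, microglia move into the outer retina and blood-borne leukocytes can join them. In whole retina, more cells of a type and more RNA per cell cannot be told apart.

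Total counts ran from 15205930 in control 1 to 22856922 in minocycline A, and 16594 to 17421 genes had a count in a library. The labels number the minocycline samples, but their columns in the count table share a single header, so a column cannot be matched to a sample and the columns are called minocycline A and B. Levels are given as CPM, that is, counts brought to a common library size with TMM factors from all 6 libraries. A count of 0 allows up to 3 counts, equal to 0.131 to 0.213 CPM, which covers counting error only. Control 1 stood apart in the sex-linked genes, with 77778 counts of Xist against 25 to 188 in the other 5 libraries. It held 11 counts of Y-linked genes, against 6532 to 12858 in the other 5, so the controls differed from each other in both. The results are given without control 1 below. Of the 10 genes, Was alone lies on the X chromosome.

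The sequence before the transcription start is shown for 5 of the genes because ETS-family factors, among them the myeloid and B-cell regulator PU.1, bind DNA around GGAAGT, and PU.1 favors the longer GAGGAAGT. RefSeq promoters on GRCm38.p6 were found for 9 of the 10 genes, all but Cd52, in 14 windows of 250 bases upstream of a start site. Each is printed from its 5′ end to its 3′ end on the strand of the gene. Both strands were searched, and capitals mark GGAAGT, or ACTTCC where the match is on the opposite strand. The shorter motif is contained in the longer one. Positions are those of the leftmost capital, counted back from the start site. Vav1 (chr17:57278850-57279099, plus strand) and Inpp5d (chr1:87620062-87620311, plus strand) hold the longer motif, Was (chrX:8090492-8090741, minus strand) and Lcp1 (chr14:75130873-75131122, plus strand) the shorter one, and Cd53 (chr3:106790150-106790399, minus strand) neither.
Vav1: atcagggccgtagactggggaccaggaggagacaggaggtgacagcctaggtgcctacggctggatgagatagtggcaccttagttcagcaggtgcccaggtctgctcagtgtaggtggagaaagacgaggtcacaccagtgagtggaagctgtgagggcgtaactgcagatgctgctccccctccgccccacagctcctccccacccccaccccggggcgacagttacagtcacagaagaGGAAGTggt
Inpp5d: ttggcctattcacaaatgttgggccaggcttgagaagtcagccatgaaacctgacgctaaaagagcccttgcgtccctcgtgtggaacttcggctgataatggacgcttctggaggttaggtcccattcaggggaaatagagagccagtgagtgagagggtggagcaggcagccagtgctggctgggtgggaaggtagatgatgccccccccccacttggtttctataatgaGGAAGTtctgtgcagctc
Was: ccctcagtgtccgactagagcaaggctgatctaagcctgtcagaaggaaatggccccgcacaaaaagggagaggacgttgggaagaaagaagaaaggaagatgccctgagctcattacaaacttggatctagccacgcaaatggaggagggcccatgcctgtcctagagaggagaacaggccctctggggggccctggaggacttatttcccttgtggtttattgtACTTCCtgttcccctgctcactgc
Lcp1: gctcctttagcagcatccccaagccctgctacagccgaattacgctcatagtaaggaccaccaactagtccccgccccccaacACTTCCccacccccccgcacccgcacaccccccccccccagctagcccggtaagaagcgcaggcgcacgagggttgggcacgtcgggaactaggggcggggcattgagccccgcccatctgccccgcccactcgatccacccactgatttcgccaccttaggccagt
Cd53: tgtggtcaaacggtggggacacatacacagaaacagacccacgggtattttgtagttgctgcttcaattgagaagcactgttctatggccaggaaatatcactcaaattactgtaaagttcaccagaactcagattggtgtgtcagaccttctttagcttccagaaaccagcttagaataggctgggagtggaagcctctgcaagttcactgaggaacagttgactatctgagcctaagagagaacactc
The core lies at position -9 in Vav1, -18 in Inpp5d, -24 in Was and -167 in Lcp1. GGAAGT was in 7 of the 14 windows, which belong to 6 genes, with Ptprc and Arhgdib beside the 4 shown, and 19.7% of all 32851 promoter windows hold it. GAGGAAGT was in 2 of the 14 windows and in 2.44% of all. The E-box CANNTG, a motif of another factor class, was in 12 of the 14 windows and in 66.2% of all. Windows of the same gene can overlap. A match is a string of letters and not a measured binding site.

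Light and control retinas were compared to ask how the leukocyte genes stand 4 days after exposure. All 10 genes were higher in both light libraries than in both controls, by 2.59-fold for Inpp5d to 29.3-fold for Lcp1 in group means. In edgeR's quasi-likelihood test, with p-values adjusted over all 14349 tested genes by Benjamini-Hochberg, 8 of the 10 rose at an adjusted p under 0.05, and Cd53 and Inpp5d did not pass. Of all tested genes, 7.52% passed in this direction. With a log2 fold change of at least 2 asked for as well, 7 of the 10 passed, against 2.89% of all tested genes. Both light libraries lay above both controls for 30.6% of all tested genes. The median log2 fold change of the 10 genes was 3.06, against 0.0025 over all tested genes. All 10 genes passed the filter on low counts in this comparison, Was only through the light libraries, as it did not pass where they are absent. Of the 9 genes other than Was, 7 rose. The summed level of 10 microglia markers moved with them, from 47.4 and 48.3 CPM in the controls to 222.7 and 661.9 CPM in the light libraries, and the part of this in the differences was not tested.

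**Figure D1:**
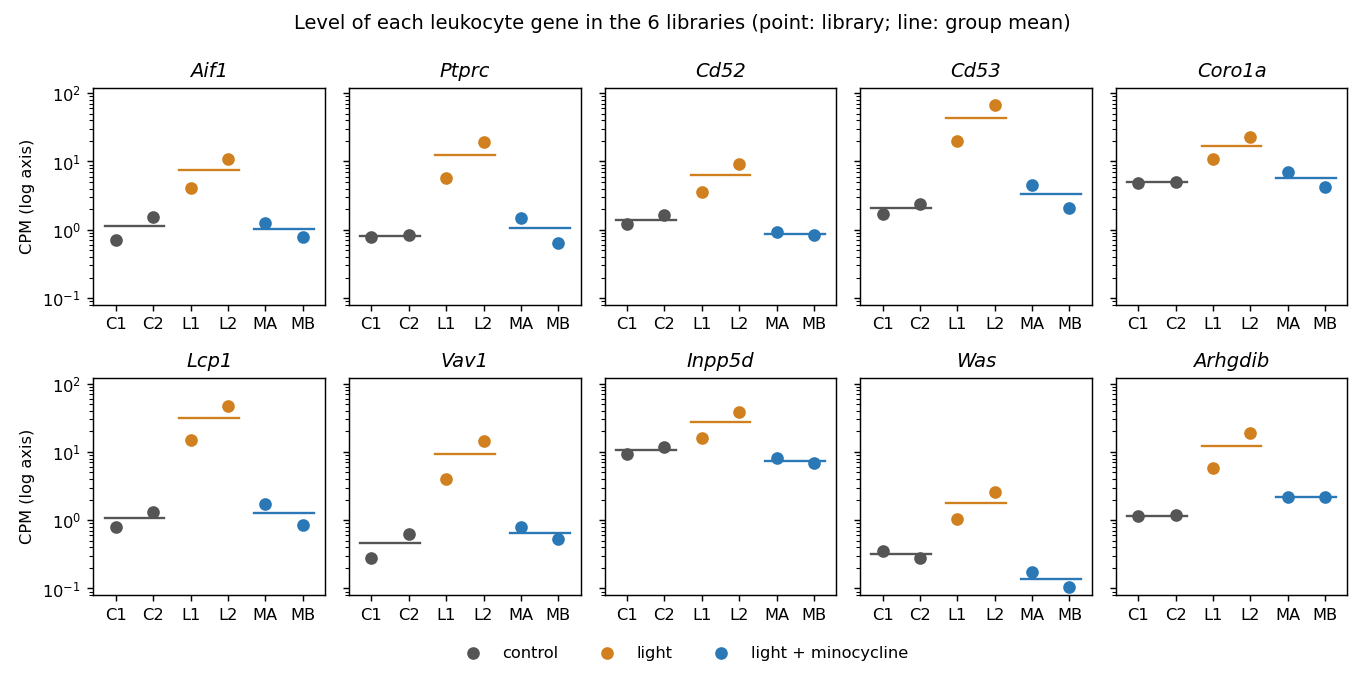
Level of each of the 10 genes in CPM on a log axis in control 1 and 2 (C1, C2), light 1 and 2 (L1, L2) and minocycline A and B (MA, MB), with a point for each library and a line at the group mean. Both light libraries lie above the other 4 in every panel, and light 2 is above light 1 for all 10 genes, as for Lcp1 at 47.2 against 14.8 CPM.

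Among the surface proteins, Ptprc (chr1:138062861-138175708, minus strand), the CD45 phosphatase that defines leukocytes, stood at 0.782 and 0.845 CPM in controls 1 and 2, 5.78 and 19.0 CPM in light 1 and 2, and 1.48 and 0.636 CPM in minocycline A and B. Light 1 was clear of the controls, and light 2 was 3.28-fold above light 1. Ptprc rose after light by 3.93 on the log2 scale, with a standard error of 0.66 and an adjusted p of 0.0200. Cd53 (chr3:106759921-106790149, minus strand), a leukocyte tetraspanin that organizes receptors in the membrane, was at 1.71 and 2.39 CPM in the controls, 19.98 and 66.8 CPM in the light libraries and 4.57 and 2.07 CPM in minocycline A and B. Its libraries did not overlap between light and control, yet its log2 fold change of 4.41 (standard error 0.87) came with an adjusted p of 0.0770. It was called by DESeq2 (adjusted p = 2.315e-05), by edgeR without robust estimation (0.00609) and with either light library left out. Cd52 (chr4:134082448-134095082, minus strand), a short GPI-anchored glycoprotein of lymphocytes and some myeloid cells, was at 1.21 and 1.62 CPM in the controls, 3.62 and 9.12 CPM in the light libraries and 0.914 and 0.848 CPM with minocycline. The 3 groups did not overlap, with both minocycline libraries below both controls. Cd52 rose after light by 2.18 (standard error 0.49, adjusted p = 0.0237), and was not called without light 2 (adjusted p = 0.144). Part of its exon sequence, 172 bases or 14.5%, lies opposite exons of Crybg2 on the other strand, and the use of strand in counting is not given in the sources used here.

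Among the actin proteins, Aif1 (chr17:35170991-35176068, minus strand), which encodes the actin-bundling and calcium-binding IBA1, was at 0.711 and 1.55 CPM in the controls, 4.15 and 10.7 CPM in the light libraries and 1.26 and 0.795 CPM in minocycline A and B. Both minocycline libraries lay between the controls. Aif1 rose after light by 2.72 (standard error 0.56, adjusted p = 0.0228). Lcp1 (chr14:75131101-75230842, plus strand), which encodes the actin-bundling L-plastin of blood cells, was at 0.782 and 1.34 CPM in the controls, 14.8 and 47.2 CPM in the light libraries and 1.74 and 0.848 CPM with minocycline. Its rise of 4.87 was the largest of the 10, with a standard error of 0.84 and an adjusted p of 0.0476, close to the threshold, and it was not called with upper quartile scaling (adjusted p = 0.0611) or with no filter (adjusted p = 0.144). Exons of the antisense and noncoding genes Gm15628 and Gm15629 cover 311 and 219 bases of its exons on the other strand. Coro1a (chr7:126699773-126707787, minus strand), whose product coronin 1A restrains actin branching through the ARP2/3 complex, was at 4.91 and 5.0 CPM in the controls, 11.04 and 22.5 CPM in the light libraries and 7.05 and 4.24 CPM with minocycline. Its controls were nearly equal and its rise of 1.77 was the smallest of those called (standard error 0.34, adjusted p = 0.0176, and 0.0591 without light 2). Was (chrX:8081453-8090498, minus strand), which activates ARP2/3 downstream of CDC42, had the fewest counts of the 10. The controls held 5 and 4 counts of Was, the light libraries 18 and 54, and minocycline A and B 4 and 2. In CPM these were 0.355 and 0.282, 1.05 and 2.56, and 0.174 and 0.106, so that outside the light libraries Was lay near the limit that a count of 0 allows. Was rose after light by 2.50 (standard error 0.61, adjusted p = 0.0278), a test it entered only through its light counts, and it was not called by DESeq2 (adjusted p = 0.0672) or by edgeR without light 2 (adjusted p = 0.353).

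Among the regulators of small GTPases and phosphoinositides, Vav1 (chr17:57279100-57328031, plus strand), the Rac exchange factor of blood cells, was at 0.284 and 0.634 CPM in the controls, 4.03 and 14.6 CPM in the light libraries and 0.783 and 0.530 CPM with minocycline. Vav1 rose after light by 4.33 (standard error 0.80, adjusted p = 0.0247), and it had the largest ratio between the light libraries, 3.62. Arhgdib (chr6:136923655-136941899, minus strand), which encodes the blood cell GDP dissociation inhibitor that holds small GTPases in the cytosol, was at 1.14 and 1.20 CPM in the controls, 5.78 and 18.8 CPM in the light libraries and 2.18 and 2.17 CPM with minocycline. It rose after light by 3.40 (standard error 0.62, adjusted p = 0.0232), and both minocycline libraries lay above both controls. Exons of the photoreceptor gene Pde6h cover 136 bases, or 7.97%, of the Arhgdib exons on the opposite strand. Inpp5d (chr1:87620312-87720507, plus strand), which encodes SHIP1, the phosphatase that removes the product of PI 3-kinase, was at 9.31 and 11.9 CPM in the controls, 15.95 and 38.9 CPM in the light libraries and 8.01 and 6.84 CPM with minocycline. It had the smallest log2 difference after light of the 10, with a fold change on that scale of 1.38 (standard error 0.45, adjusted p = 0.116), and it was called by DESeq2 (adjusted p = 0.00283) and by edgeR without light 1. Vav1 and Inpp5d, the genes with GAGGAAGT next to the start site, thus stood at 20.3-fold and 2.59-fold over control, near opposite ends of the range.

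The light libraries differed from each other in the same direction for all 10 genes. Light 2 exceeded light 1 by 2.04-fold for Coro1a to 3.62-fold for Vav1, with a median of 2.90. From light 1 alone the fold over the control mean was 1.5 to 13.9, and from light 2 alone it was 3.67 to 44.6. In both cases Inpp5d was lowest and Lcp1 highest. Fits that left out a library had a single library in that group. Their calls depended on which library was left out and were lost without either control, so only effect sizes are given here. The median log2 fold change was 3.02 without control 1, the library that differed in Xist, 3.41 without control 2, 3.63 without light 1 and 2.09 without light 2.

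Light-exposed retinas with and without minocycline were compared next. All 10 genes were lower in both minocycline libraries than in both light libraries, and group means differed by 2.97-fold for Coro1a to 24.0-fold for Lcp1, with a median of 9.46. By edgeR's test 0 of the 10 passed at an adjusted p under 0.05, and 0.0407% of all 14750 tested genes passed in this direction. All 10 had an unadjusted p under 0.05, as did 3117 of all tested genes in either direction, and DESeq2 called 10, against 5.01% of its tested genes in this direction. Of the 10 genes, 8 had a log2 fold change of -2 or lower, a size reached by 2.52% of all tested genes, and the separation of both libraries from both was shared by 28.7%. The median log2 fold change was -3.17 for the 10 genes and 0.0062 over all tested genes. Without light 1 edgeR called all 10, against 4.18% of all tested genes, with a median of -3.74. Without light 2, minocycline A or minocycline B it called 0, and the medians were -2.23, -3.59 and -2.93.

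The fold changes of single genes are given with the standard error in parentheses. Lcp1 stood at -4.54 (0.72, adjusted p = 0.0709). Vav1 stood at -3.79 (0.70, adjusted p = 0.0713), Cd53 at -3.68 (0.71, adjusted p = 0.0861) and Ptprc at -3.51 (0.71, adjusted p = 0.0844). The group of light libraries enters this comparison and the one with controls, so the comparisons are not independent. Was stood at -3.61 (0.67, adjusted p = 0.0698), on 4 and 2 counts with minocycline, and it entered this test too only through its light counts. Without it, 9 of 9 genes had an unadjusted p under 0.05 and 7 of 9 stood at -2 or lower, with a median of -2.83. Aif1 and Cd52 were both at -2.83 (0.54 and 0.52, adjusted p = 0.0709 and 0.0698). The smallest differences were those of Arhgdib at -2.48 (0.58, adjusted p = 0.0933), Inpp5d at -1.87 (0.43, adjusted p = 0.0981) and Coro1a at -1.55 (0.41, adjusted p = 0.109).

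**Figure D2:**
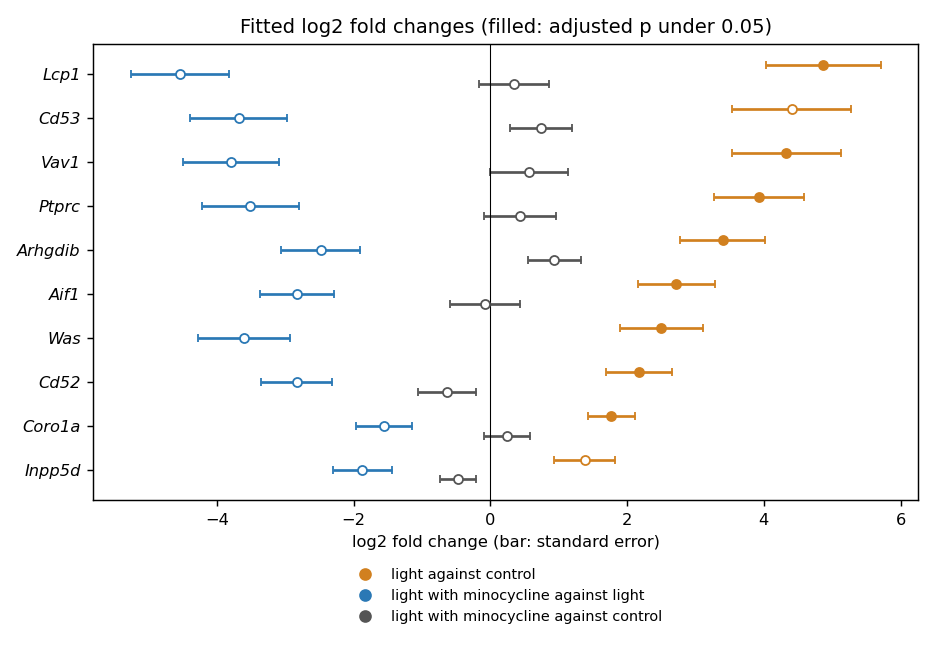
Fitted log2 fold change of each gene for light against control (orange), light with minocycline against light (blue) and light with minocycline against control (gray), with bars for the standard error and filled points for an adjusted p under 0.05. The orange points run from 1.38 to 4.87, with 8 of 10 filled, the blue from -4.54 to -1.55 and the gray from -0.63 to 0.94, with none of the blue or gray points filled. Was has no gray point because its counts did not pass the filter there.

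Light-exposed retinas with minocycline were last set against untreated controls. Of the 9 genes tested, edgeR called 0 at an adjusted p under 0.05, and DESeq2 called 0. By edgeR 1 of the 9 had an unadjusted p under 0.05, as did 994 of all 14181 tested genes in either direction. Over all 14181 tested genes 0.162% were called higher and 0% lower. The median log2 fold change was 0.34 for the 9 genes, 0.0206 over all tested genes, and -0.28 without minocycline A. The gene with the unadjusted p under 0.05 was Arhgdib, at 0.94 (standard error 0.38, unadjusted p = 0.0381 from edgeR's fit, adjusted p = 0.683). Both its minocycline libraries exceeded both controls, as in 15.9% of tested genes. Both minocycline libraries lay below both controls for Cd52 at -0.63 (standard error 0.42) and Inpp5d at -0.47 (0.26), as in 24% of tested genes. The other log2 fold changes were 0.74 (0.46) for Cd53, 0.56 (0.58) for Vav1, 0.44 (0.53) for Ptprc, 0.34 (0.51) for Lcp1, 0.24 (0.34) for Coro1a and -0.08 (0.51) for Aif1, and the libraries of the groups overlapped for these 6. Adjusted p-values ran from 0.683 to 0.966, and with standard errors of 0.26 to 0.58 these comparisons leave room for differences of either sign. Light stood above both other groups for all 10 genes, and the order of those groups was not established by the test for any of the 9.

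The minocycline libraries can also be placed on the scale from control mean to light mean. In minocycline A, Coro1a stood at 17.8% of the distance, Arhgdib 9.07%, Cd53 6.10%, Ptprc 5.76%, Vav1 3.67%, Lcp1 2.27% and Aif1 2.09%. In minocycline B only Arhgdib, at 9.03%, was above 1%, and Coro1a stood at -6.04%, where a negative value means a level below the control mean. Expression of Was, Cd52 and Inpp5d was below the control mean in both minocycline libraries, with Inpp5d at -15.4% and -22.4%. Minocycline A exceeded B by up to 2.33-fold for Ptprc, and for Arhgdib the libraries were nearly equal at 2.18 and 2.17 CPM.

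Levels were compared between genes per kilobase of the principal transcript. In control retinas Coro1a had the highest level of the 10 at 2.84 ± 0.04 CPM per kb (SD, n = 2), followed by Cd52 at 2.75 ± 0.57 and Inpp5d at 2.15 ± 0.37. Inpp5d was below the others of these 3 in both controls, while Coro1a exceeded Cd52 in control 1 and Cd52 exceeded Coro1a in control 2. Aif1 at 1.29 ± 0.68, Cd53 at 1.18 ± 0.28 and Arhgdib at 0.978 ± 0.035 formed a middle set whose ranges met, and Lcp1 at 0.276 ± 0.102, Ptprc at 0.173 ± 0.009, Vav1 at 0.155 ± 0.083 and Was at 0.151 ± 0.025 were lowest. After light Cd53 led at 24.9 ± 19.0 CPM per kb, followed by Cd52 at 12.4 ± 7.6, Arhgdib at 10.3 ± 7.7, Coro1a at 9.60 ± 4.64, Aif1 at 8.50 ± 5.32 and Lcp1 at 8.07 ± 5.98. Inpp5d followed at 5.56 ± 3.29, Vav1 at 3.14 ± 2.52, Ptprc at 2.63 ± 1.99 and Was at 0.855 ± 0.506. Within each light library the order was the same, except that Arhgdib exceeded Coro1a and Lcp1 exceeded Aif1 in light 2 but not in light 1. With minocycline Coro1a was again highest at 3.23 ± 1.14 CPM per kb and Was again lowest at 0.0662 ± 0.0228.

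Shares of the common sum were set side by side as well, and for 6 of the 10 genes both light libraries stood outside the range of the other 4. Cd53 held 9.40% and 10.2% of the summed CPM per kb of the 10 genes in the controls, 25.7% and 30.1% in the light libraries, and 18.2% and 11.9% in minocycline A and B. Coro1a went the other way, with 26.9% and 21.3% in the controls, 14.2% and 10.1% in the light libraries and 27.9% and 24.4% with minocycline. Inpp5d held 18.1% and 17.9%, then 7.24% and 6.19%, then 11.2% and 13.9%. Lcp1 held 1.95% and 2.59%, then 8.63% and 9.66%, then 3.14% and 2.22%. Ptprc and Vav1 also had larger shares in both light libraries than in the other 4. For Aif1, Cd52, Was and Arhgdib the shares of the light libraries lay within the range of the others, and control and minocycline shares of Coro1a overlapped too.

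Most of the 10 genes have relatives of the same family that are used outside the blood lineage, and 12 of these were examined. Over the 12, the median log2 fold change after light was 0.52, against 3.06 for the 10 leukocyte genes. Of the 12, 2 rose, against 7.52% of all tested genes. Pls3, a plastin of solid tissues, rose by 0.94 (standard error 0.18, adjusted p = 0.0151), while Pls1, the intestinal and hair cell plastin, stood at -0.26 (0.23, adjusted p = 0.477) beside the 4.87 of Lcp1. Arhgdia, the ubiquitous inhibitor of the same family, rose by 0.90 (0.19, adjusted p = 0.0199), and Arhgdig stood at 0.91 (0.34, adjusted p = 0.108) beside the 3.40 of Arhgdib. Of the exchange factors, Vav2 stood at 0.95 (0.28, adjusted p = 0.0516) and Vav3 at 0.54 (0.24, adjusted p = 0.158). The neural WASP gene Wasl stood at -0.30 (0.14, adjusted p = 0.177), opposite in sign to Was. The coronins Coro1b and Coro1c were at -0.28 (0.15, adjusted p = 0.255) and 0.56 (0.19, adjusted p = 0.0788), the SHIP2 gene Inppl1 at 0.24 (0.18, adjusted p = 0.415), the phosphatase Ptpra at 0.16 (0.15, adjusted p = 0.532) and Aif1l at 0.49 (0.34, adjusted p = 0.392). The difference between each gene and its relative was not itself tested. In the comparison of light with minocycline against light the 12 relatives ran from -0.74 for Vav2 to 0.12 for Wasl, with a median of -0.28. EdgeR called 0 of the relatives there, against 0.0407% of all tested genes called lower.

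**Figure D3:**
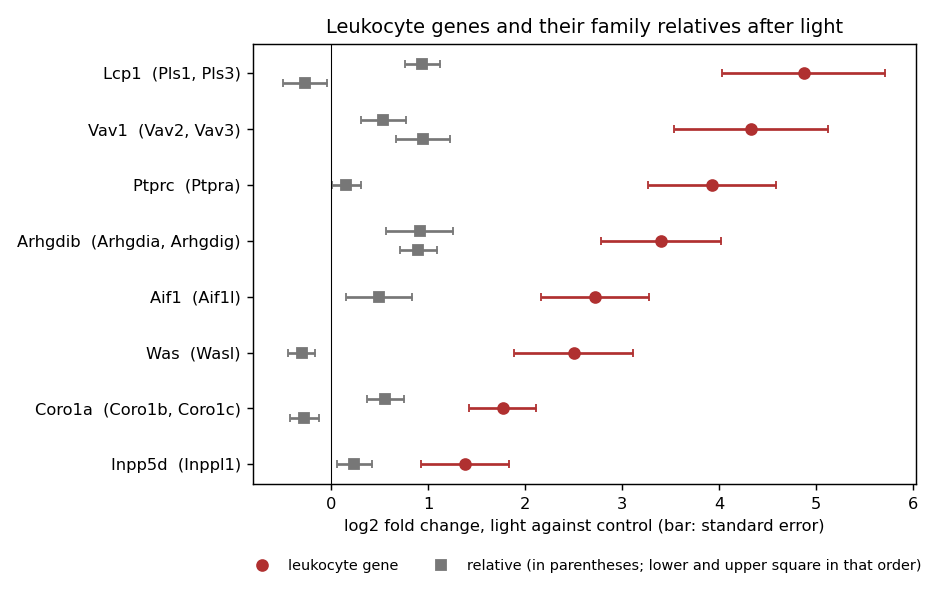
Fitted log2 fold change of light against control, with bars for the standard error, for 8 of the leukocyte genes (red circles) and their 12 family relatives (gray squares, named in parentheses). The leukocyte genes lie between 1.38 and 4.87 and the relatives between -0.30 and 0.95.

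Per kilobase of transcript, Coro1b stood at 102 ± 10.4 CPM per kb (SD, n = 2) in the controls against 2.84 for Coro1a, and Wasl at 25.8 ± 0.2 against 0.151 for Was. Coro1b was at 179 and 207 CPM in the controls, 162 and 156 CPM in the light libraries and 148 and 166 CPM with minocycline. Wasl was at 112 and 113 CPM in the controls, 88.5 and 92.6 CPM in the light libraries and 91.1 and 103 CPM with minocycline. Both genes had their highest libraries among the controls, unlike the 10 leukocyte genes. The summed level of the 12 relatives was 596.9 and 612.1 CPM in the controls, 610.5 and 716.3 CPM in the light libraries and 600.2 and 585.0 CPM with minocycline. The summed level of the 10 leukocyte genes was 21.2 and 26.8, 86.2 and 250.3, and 28.2 and 19.1 CPM, with both light libraries far above the other 4.

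Other genes of leukocyte actin control, small GTPase regulation and proximal signaling were taken as 3 lists, and over all tested genes 7.52% rose and 3.8% fell after light. Of 16 actin regulators 14 were tested, 8 rose after light and 1, Hcls1, fell, with a median log2 fold change of 2.80. Without the gene among these that passed the filter only through the light libraries, 7 of 13 rose, with a median of 2.49. Hcls1, a cortactin-like protein of blood cells, was at 171 and 187 CPM in the controls, 120 and 88.1 CPM in the light libraries and 140 and 162 CPM with minocycline. Its log2 fold change of -0.78 (adjusted p = 0.0222) was opposite in sign to those of the 10 genes. Dock8 stood at -0.09 (adjusted p = 0.761), and Plek, the platelet and leukocyte protein pleckstrin, stood at 2.15 (adjusted p = 0.180) on 17.0 and 15.7 CPM in the controls and 36.1 and 109 CPM in the light libraries. Of 12 GTPase regulators all were tested and 9 rose, with a median of 2.69, and without the genes that passed the filter only through the light libraries 6 of 8 rose, with a median of 1.86. Arhgef1 stood at -0.31 (adjusted p = 0.238), while Arhgap15 rose by 1.26 (adjusted p = 0.0264) and Hmha1 by 3.39 (adjusted p = 0.0352). Of 25 signaling adaptors and kinases 24 were tested and 17 rose, with a median of 3.10, and without the genes that entered through the light libraries 9 of 15 rose, with a median of 2.13. The 3 with the highest mean CPM did not pass, with Laptm5 at 4.39 (adjusted p = 0.0924), Skap2 at 1.24 (adjusted p = 0.0673) and Samsn1 at 0.51 (adjusted p = 0.134). In the comparison of light with minocycline against light, edgeR called 0 genes of the 3 lists, against 0.0407% of all tested genes called lower. The medians of the lists were -2.38, -2.54 and -2.72. Without the genes that passed the filter only through the light libraries, the medians were -2.19, -1.93 and -2.18, over 13, 8 and 15 genes.

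Markers of single leukocyte types were read beside the 10 genes. Of 10 microglia markers 6 rose after light, with a median log2 fold change of 3.19, and 4 of the 8 that did not owe their place in the test to the light libraries, with a median of 2.77. Their summed level was 48.3 and 47.4 CPM in the controls, 222.7 and 661.9 CPM in the light libraries and 76.5 and 43.8 CPM in minocycline A and B. Light 2 exceeded light 1 by 2.97-fold in this sum and by 2.90-fold in the sum of the 10 genes. Neutrophil markers summed to 1.14 and 0.845 CPM in the controls, 4.32 and 15.9 CPM in the light libraries and 2.18 and 0.742 CPM with minocycline. Most of this was the receptor gene Csf3r, at 13, 11, 60, 306, 34 and 9 counts in control 1 and 2, light 1 and 2, and minocycline A and B, while the granule genes Elane and Camp had 0 counts in every library and 5 of the 8 neutrophil genes in the table never passed 3 counts. T-cell markers summed to 0.782 and 1.34 CPM in the controls, 2.28 and 4.75 CPM in the light libraries and 1.31 and 0.901 CPM with minocycline, 3.31-fold higher in light than control means. Counts of the cytokine receptor gene Il7r were 1, 2, 9, 43, 2 and 1, and those of the kinase gene Lck 7, 12, 17, 33, 17 and 13, in the same library order, while Cd3e, which encodes a chain of the T-cell receptor complex, had 0 counts in all 6. B-cell markers summed to 0.759 to 1.85 CPM, with 0 counts of Ms4a1. NK-cell markers summed to 1.55 to 4.79 CPM, nearly all from Eomes, with 0 counts of Ncr1 and Prf1. Monocyte markers summed to 0.640 and 0.352 CPM in the controls, 1.52 and 2.23 CPM in the light libraries and 0.827 and 1.70 CPM in minocycline A and B, 3.78-fold higher in light than control means. Among them Ccr2, named after its values were seen, had 0 counts in either control, 10 counts in light 1, 12 in light 2 and at most 1 with minocycline. Markers of border-associated macrophages ran from 5.99 to 11.8 CPM, mostly from Lyve1. Among them Cbr2, a carbonyl reductase gene, had 2, 1, 12, 24, 41 and 44 counts in the same library order. Cbr2 rose after light by 3.05 (adjusted p = 0.0251) and stood 4.23 above control with minocycline (adjusted p = 0.0448), where none of the 9 leukocyte genes tested was called. Mast-cell markers, chiefly Kit, ran from 2.47 to 7.15 CPM with 0 counts of Cma1. Of 7 red-cell genes 5 had a row, and of these Hba-a1, Hba-a2, Hbb-b1 and Hbb-b2 were listed at 0 in every library. The remaining one, Alas2, had 2, 21, 3, 12, 3 and 34 counts in the same library order. Why the hemoglobin genes stood at 0 was not tested. Beside microglia, the marker sums of leukocyte types thus stayed at or under 15.9 CPM in every library.

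**Figure D4:**
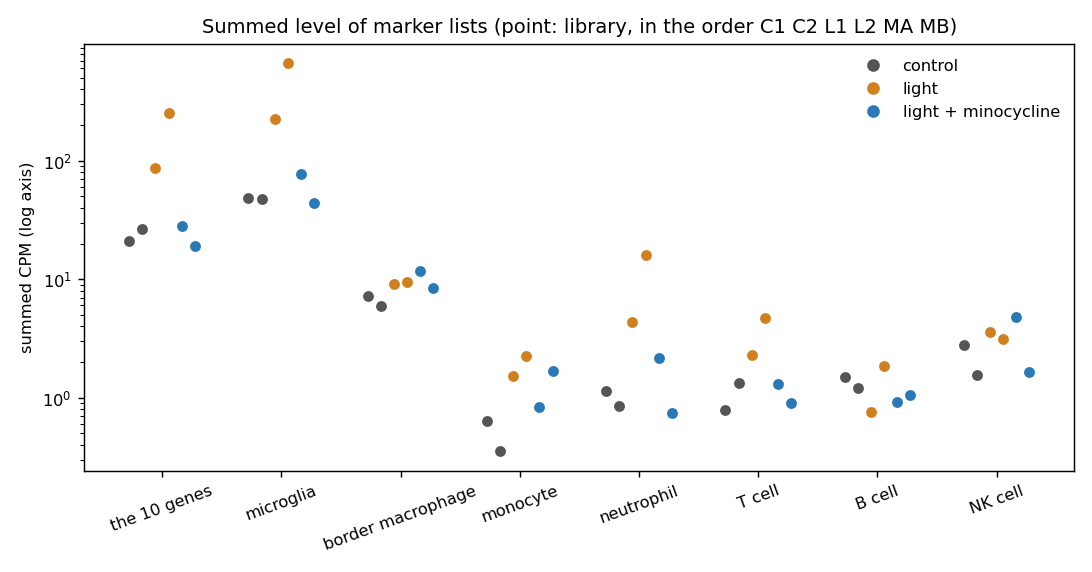
Summed CPM, on a log axis, of the 10 leukocyte genes and of marker lists of 7 leukocyte types, with the 6 libraries of each list in the order control 1 and 2, light 1 and 2, minocycline A and B. The 10 genes (19.1 to 250.3 CPM) and the microglia markers (43.8 to 661.9 CPM) stand above the other lists. Both have their highest sums in light 1 and light 2, as do the neutrophil and T-cell lists at lower levels.

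Markers of other tissue also moved between the groups. Rod photoreceptor genes summed to 100600 and 79170 CPM in the controls, 59720 and 42300 CPM in the light libraries and 86260 and 92990 CPM with minocycline, lowest where the 10 genes were highest. Corneal epithelium markers summed to 202 and 284 CPM in minocycline A and B against 2.32 to 16.3 CPM in the other 4 libraries. Pigment cell markers summed to 303 and 1378 CPM against 15.8 to 71.8 CPM, and smooth muscle markers to 65.5 and 325 CPM against 5.19 to 18.0 CPM. All 3 sums were higher in both minocycline libraries than in any other library, and the part of these tissues in the levels of the 10 genes was not tested.

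The genes nearest to the 10 in pattern were ranked over the 6 libraries by the root-mean-square difference between each gene's centered log2 CPM and the mean of the 10. Among 13693 other genes with a mean of at least 1 CPM, the median difference was 1.42. Nearest were Cmklr1, the chemerin receptor gene, at 0.112, Pik3cg, encoding a catalytic subunit of PI 3-kinase, at 0.129, Irf5, an interferon regulatory factor, at 0.136, Gcnt1, a glycosyltransferase, at 0.153 and Adap2, an ARF GTPase-activating protein, at 0.158. Cmklr1 was at 0.284 and 0.423 CPM in the controls, 2.10 and 4.75 CPM in the light libraries and 0.479 and 0.318 CPM with minocycline. The limit of 1 CPM was set on the mean of all 6 libraries. Cmklr1, Pik3cg and Irf5 lay under 1 CPM in every control and minocycline library, so they met it only through the light libraries. Gcnt1 and Adap2 reached at most 1.18 and 1.04 CPM outside the light group. The 10 genes themselves lay between 0.223 for Aif1 and 0.777 for Lcp1, with Aif1 nearest to the common pattern and Lcp1 farthest from it.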

How the data were processed

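RNA of 6 mouse retina libraries was measured by stranded, single-read mRNA sequencing. The authors aligned the reads to mm10 with STAR within the RNA Express workflow and deposited whole-number counts per gene. The versions, the gene annotation and the use of strand in counting are not given in the sources used here. The data statement calls the values normalized, but they are unscaled whole numbers. All value columns were used.

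Each pair of groups was fitted over the whole table in edgeR 4.0.16 (R 4.3.3, limma 3.58.1): filterByExpr, TMM scaling, robust quasi-likelihood F test and Benjamini-Hochberg adjustment, with a call at an adjusted p under 0.05. Standard errors were derived from the F statistic. CPM used TMM scaling over all 6 libraries, and log2 CPM a prior count of 2. Levels per kb used the longest APPRIS principal transcript of GENCODE M21 (GRCm38, the same assembly as mm10). DESeq2 1.42.0 was an alternative, beside other scalings, filters and thresholds, and fits that left out single libraries. The fit was tested on simulated data. The 10 genes, the lists of related and marker genes and the tests were chosen with earlier results of these data known. Named beyond the 10 were all relatives, the 3 tested genes of each related list with the highest mean CPM, of cell type markers the 2 with the highest mean CPM (not all are reported here) and those at 0, and the 5 genes nearest in pattern.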

Additional observations from a re-analysis of the deposited data

How the results depend on the processing

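For light against control, 8 genes were called, against 7.52% of all tested genes, and 7 to 10 under the other tools, scalings, the fold cutoff and the fit of all libraries, where 2.89% to 13.5% of all passed. The count was 5 with at least 10 counts asked for in every library, which left 8 genes to test (6.77% of all), and 0 at an adjusted p under 0.01 (0.481% of all). With the replicate number as a block it was 10, against 11.6% of all, and the median log2 fold change 2.96. The numbers did not pair the samples, as the deviations of same-numbered control and light libraries had r = -0.0123 over 14713 genes. With 1 library left out, the count ran from 0 to 10 and the median from 2.09 to 3.63. The median of 3.06 fell to 1.40 with shrunken DESeq2 fold changes. For light with minocycline against light, 0 genes were called, against 0.0407% of all, but 10 by DESeq2 with and without shrinkage (4.68% and 5.01% of all), 4 with no filter (2.63%), 8 with all 6 libraries in one fit (2.4%) and 8 by size alone (a log2 fold change of -2 or lower, 2.52%). With 1 library left out, the count ran from 0 to 10 and the median from -3.74 to -2.23. The median was -3.17, -1.34 with shrinkage, and -2.84 where 10 counts were asked of each library, which dropped Was. Where a library was left out, the lone one was assumed to vary like those of the other group, and the cause of these changes was not tested. Scaling by total counts instead of TMM moved the all-gene median to 0.24 in the former and -0.17 in the latter comparison, and the genes then ran from 1.62 to 5.12 and from -4.72 to -1.73. For light with minocycline against control, 0 were called under all alternatives run. Leaving out a library turned the sign of Aif1 (-0.54 to 0.59), Ptprc (-0.31 to 0.86), Coro1a (-0.19 to 0.51) and Lcp1 (-0.28 to 0.79). Among 383 recomputed single-gene values, these 4 genes were the only ones to turn sign. No paired analysis was possible because the columns of both minocycline samples share a header and cannot be matched to their numbers, for the comparisons with that group. Genes with few counts, Was above all, are limited by depth.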
